A study of Arabidopsis thaliana and Boechera depauperata with 12 samples.

Results

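The class I small heat shock proteins (sHSPs) of the cytosol are a family of 6 genes in *A. thaliana*: HSP17.6C (AT1G53540), HSP17.4 (AT3G46230), HSP18.2 (AT5G59720), HSP17.8 (AT1G07400), HSP17.6A-CI (AT1G59860) and HSP17.6B-CI (AT2G29500). They were taken by their gene identifiers, and all 6 were found among the 33977 genes of the *A. thaliana* counts. RNA came from unstressed plants kept at 22 °C, after basal heat stress (B/HS), which was 3 h at 38 °C, and after acquired heat stress (A/HS), which was 1 h at 38 °C, 1 h back at 22 °C and then 3 h at 43 °C. Each condition has 2 biological replicates, prepared separately from germination on, and so 6 *A. thaliana* libraries bear on these genes, named here control 1 and 2, B/HS 1 and 2 and A/HS 1 and 2. The numbers only name the libraries and do not pair them. A/HS differs from B/HS in the priming, the recovery and the final temperature together, so the parts played by these cannot be told apart. Of the series' 12 libraries, the other 6 are from *B. depauperata* and were not analysed here for these genes.

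Small HSPs are chaperones with a conserved alpha-crystallin domain that assemble into large oligomers. Under heat they bind proteins that are unfolding and keep them soluble, without using ATP, until the HSP101 and HSP70 machines refold them. In plants their genes are nearly silent in unstressed vegetative tissue, and heat shock factors (HSFs) switch them on by binding heat shock elements, which are alternating GAA and TTC units in the promoter. Some class I members are also made in maturing seeds.

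Libraries held between 11819511 and 15297546 counts. Chloroplast and mitochondrial genes took 58.1 to 74.9 % of them, which left 3235697 to 5344301 counts on nuclear genes. The labels give the tissue as root. The methods name no tissue for the RNA-seq, but name leaf tissue for the RT-PCR on repeated heat stress experiments. The markers go against root alone. The summed level of 9 leaf and shoot markers was 3508 to 6747 CPM (the count as a share of its library's TMM-scaled total, times 1000000) in every library, and that of 13 root markers 54.3 to 270 CPM. Of the leaf and shoot markers 8 of 9 had over 3 counts in every library, the stomatal genes FMA and TMM among them, but not MYB0 (0 to 4 counts). Of the root markers 5 of 13 did (PYK10, PHT1;1, SCR, SHR and NRT2:1). Among the other root markers the root meristem regulator PLT2 was lowest, with 0 counts in 5 of the 6 libraries. CASP1 and EIR1, also among them, reached 38 counts in A/HS 2. The summed root markers were higher in the control libraries (248 and 270 CPM) than in the heat-stressed ones (54.3 to 125 CPM), mostly through PYK10, without which they were 42.6 to 58.5 CPM and 17.0 to 40.7 CPM. A/HS 2 held the highest count of 8 of the 13, and the part of root tissue in the results below was not tested. The 4 seed storage markers reached at most 1 count. Since these are bulk samples, fewer cells of a type and less RNA per cell cannot be told apart.

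All 6 genes have a single exon in the RefSeq annotation (assembly TAIR10.1), against 18.9 % of 27444 protein-coding genes in the counts and 5 of 13 other sHSP genes. HSP17.6C spans 19980299 to 19981199 on the plus strand of chromosome 1. HSP17.8, from 2274926 to 2275783, and HSP17.6A-CI, from 22031343 to 22032250, lie on the same chromosome and strand. HSP17.6B-CI is on the minus strand of chromosome 2 (12633065 to 12634120), HSP17.4 on the minus strand of chromosome 3 (16984118 to 16984867) and HSP18.2 on the plus strand of chromosome 5 (24062323 to 24063300). The encoded proteins are 153 to 161 residues long. By sequence the family falls into a pair of groups of 3 genes. HSP17.8, HSP17.6A-CI and HSP17.6B-CI share 83.2 to 93.0 % of their residues, and HSP17.6C, HSP17.4 and HSP18.2 share 79.5 to 89.2 %. Between the groups the identity is 66.0 to 70.2 %.

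Heat shock elements were looked for in the DNA before the start codon. The elements searched were TTCNNGAA and GAANNTTC, which are each 2 facing units, and the 3-unit element, TTCNNGAA followed by 2 bases and TTC, or its reverse complement, on both strands. A 3-unit element contains both of the shorter ones. In the 400 bases before the start codon, 6 of 6 members held at least 1 of the shorter elements, against 28.6 % of 27443 protein-coding genes and 9 of 13 other sHSP genes. The 3-unit element was in HSP17.6C, HSP18.2 and, at 2 places, in HSP17.4, and in none of the other sequence group. It was in 0.955 % of all genes and in 1 of 13 other sHSP genes. In the 250 bases before the annotated gene start only 2 of the 6, HSP17.6C and HSP17.4, held an element, since in the other 4 the matches lie after the annotated transcript start. There 16.1 % of genes and 5 of 13 other sHSP genes held one. The longer window was chosen after this had been seen, and a match is a description of the letters, not a site shown to be bound. These 8 stretches of 30 bases show each gene's 3-unit elements or, where it has none, its shorter ones, 5′ to 3′ on the gene's strand, with the element in capitals, beginning with HSP17.6C (chr1:19980238-19980267) and ending with HSP18.2 (chr5:24062388-24062417).
HSP17.6C: caacaccaGAAACTTCTTGAAagcacctga
HSP17.4 upstream: tcaacataGAAGCTTCTTGAAgccacctga
HSP17.4 downstream: agaaacctGAAATTTCAAGAAacttgcaga
HSP17.8: ggacccgtaaaTTCTAGAAgctctggagat
HSP17.6A-CI: atttgcctcatTTCTAGAAgctctggagat
HSP17.6B-CI upstream: aaatgctcctaGAATTTTCtggattcacct
HSP17.6B-CI downstream: gagaagctcgaGAAATTTCggttagtacct
HSP18.2: caacaaacGAAACTTCCTGAAatgccaaga

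The element of HSP17.8 begins 154 bases before its start codon (chr1:2274983-2275012) and that of HSP17.6A-CI 124 bases before (chr1:22031339-22031368), and both stretches end in the same letters. The 3-unit elements of HSP17.6C, HSP17.4 and HSP18.2 that lie farthest from the codon begin 264, 233 and 236 bases before it. HSP17.4 carries its other one 152 bases before the codon. The further short elements of HSP17.6C (beginning at 167 and 152 bases) and HSP18.2 (at 123 and 108 bases) are in the map of element positions only. The HSP17.4 stretches are chr3:16984945-16984974 and chr3:16984864-16984893, and those of HSP17.6B-CI chr2:12633920-12633949 and chr2:12633838-12633867.

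**Figure D1:**
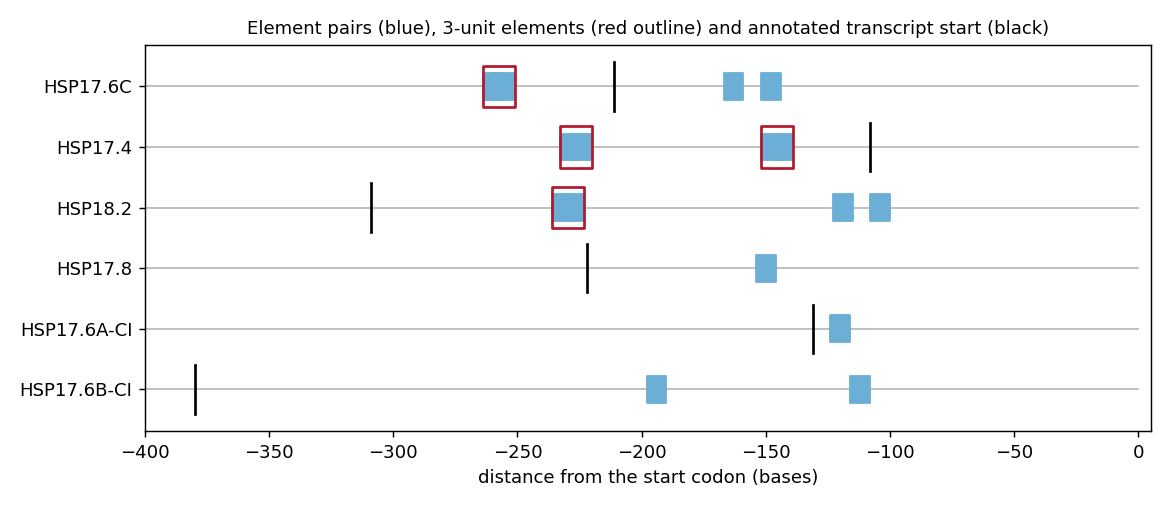
Positions of heat shock elements in the 400 bases before the start codon of each gene, in bases from the codon. Blue boxes are TTCNNGAA or GAANNTTC, red outlines the 3-unit element and black ticks the annotated transcript start; red outlines appear in 3 genes, with 2 outlines in HSP17.4.

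The control libraries already held much RNA of the 6 genes, though its source was not tested and its level differed between control 1 and 2. Compared per kb of exon, their mean CPM ranked between place 27 (HSP17.8) and place 271 (HSP17.4) of 32548 nuclear genes in control plants. After B/HS they ranked between place 2 and place 17, and after A/HS between place 2 and place 20. HSP17.8, HSP18.2 and HSP17.6C filled places 2 to 4 in both heat treatments.

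HSP18.2, the most abundant member after A/HS, had 238 and 549 CPM in control 1 and 2, 5938 and 5691 CPM in B/HS 1 and 2, and 4649 and 6134 CPM in A/HS 1 and 2. The control libraries lie far below the other 4, and B/HS and A/HS overlap. HSP17.6C had 218 and 482 CPM in the control libraries, 5483 and 4414 CPM after B/HS, and 3484 and 3973 CPM after A/HS. Both A/HS libraries of HSP17.6C lie below both B/HS libraries. HSP17.4, the member with the lowest CPM in every condition, had 39.7 and 85.2 CPM, then 1296 and 972 CPM, then 455 and 762 CPM. It overlaps genes on the opposite strand, so its place among the members carries the limit given further below. It shows the same order of conditions as HSP17.6C, with a wider step between B/HS and A/HS.

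In the other sequence group, HSP17.8 had 230 and 506 CPM in control plants, 6008 and 4442 CPM after B/HS and 2595 and 4227 CPM after A/HS. HSP17.6A-CI had 72.9 and 153 CPM, then 1901 and 1402 CPM, then 762 and 1349 CPM. Both genes were lower in both A/HS libraries than in both B/HS libraries. HSP17.6B-CI had 109 and 220 CPM, then 2565 and 2207 CPM, then 1912 and 2502 CPM, and here B/HS and A/HS overlap as they do for HSP18.2. In raw counts the lowest value of any member was 426 (HSP17.4, control 1) and the highest 81595 (HSP18.2, A/HS 2), so counting error is small beside the spread between libraries.

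**Figure D2:**
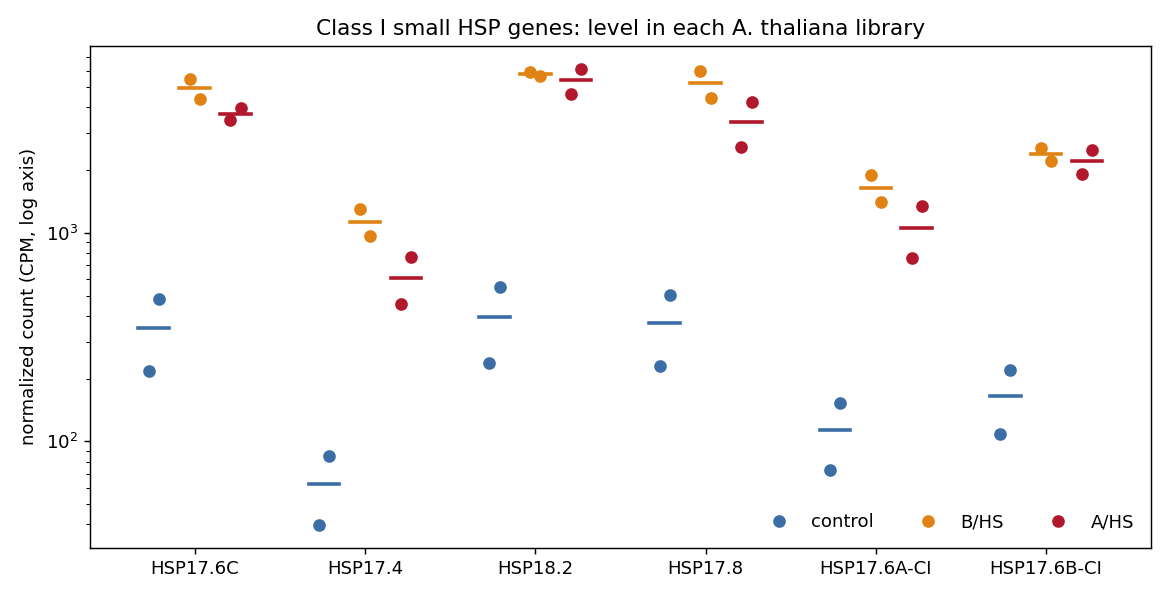
CPM (log axis) of the 6 class I sHSP genes in each of the 6 *A. thaliana* libraries; points are libraries, short lines the mean of the 2 libraries of a condition. For every gene both control points (39.7 to 549 CPM) lie below all 4 heat stress points, and control 2 lies above control 1.

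Both heat treatments raised all 6 genes. After B/HS 6 of 6 were differentially expressed (DE, adjusted p under 0.05 and at least 4-fold) and higher, against 3.76 % of 17669 tested genes, and both B/HS libraries lay above both control libraries for 6 of 6, against 36.6 % of tested genes. The log2 fold changes lay between 3.82 (HSP17.6C) and 4.18 (HSP17.4), with a median of 3.86 against −0.02 over all tested genes. HSP17.4 rose by 4.18 ± 0.40 (SE, n = 2 per condition; edgeR adjusted p = 5.97e-06), or 18.1-fold, and HSP18.2 by 3.88 ± 0.44 (edgeR adjusted p = 2.07e-05). HSP17.8, a close relative of HSP17.6A-CI, rose by 3.83 ± 0.45 (edgeR adjusted p = 2.67e-05), the highest adjusted p of the 6 in this comparison. Their changes took places 31 to 58 by size among the 17669 genes.

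After A/HS 6 of 6 were DE and higher, against 2.92 % of tested genes, and both A/HS libraries lay above both control libraries for 6 of 6, against 34.7 %. The median log2 fold change was 3.35, against 0.02 over all tested genes, and the range ran from 3.21 (HSP17.8) to 3.78 (HSP18.2). HSP18.2 rose by 3.78 ± 0.44 (edgeR adjusted p = 3.55e-05), or 13.7-fold, and HSP17.6B-CI by 3.74 ± 0.38 (edgeR adjusted p = 1.25e-05). The other 4 lay close together at 3.21 to 3.41, and HSP17.8 had the highest adjusted p, 0.000114. The changes took places 75 to 147 of 17669. The B/HS and A/HS comparisons use the same control libraries, so they are not independent of each other.

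The size of these changes depended on the control library used. Without control 1 the members' median changes for B/HS and A/HS were 3.44 and 2.90 on the log2 scale, and without control 2 they were 4.46 and 3.98, with 6 of 6 genes DE each time. Control 2 held 2.02 to 2.30 times the CPM of control 1 for all 6 members, while the median ratio over all tested genes was 1.02 and 1.04 % of them reached a ratio of 2. The ratio was above that median for other heat shock genes too, with a median of 2.02 over 13 other sHSP genes, 1.97 over 15 refolding chaperones and 1.36 over 13 HSFs and regulators, but 1.03 over 9 reference genes. Each control library held a similar share of the B/HS level from member to member. In control 1 it was 3.51 to 4.57 % of the mean B/HS level and in control 2 it was 7.52 to 9.75 %, and over the 10 other sHSP genes that were DE it was 4.10 to 5.88 % and 8.82 to 11.4 %. The shares varied more over the 14 refolding chaperones that were DE (4.36 to 24.5 % and 9.55 to 24.0 %) and the 10 HSFs and regulators that were DE (4.51 to 18.0 % and 9.87 to 25.7 %). These shares restate the fold changes after B/HS. Only genes at least 4-fold higher were kept, so genes with larger control shares were left out of these ranges. Where the members' RNA in the control libraries came from was not tested. With only 2 libraries per condition an exact two-sided permutation test goes no lower than p = 0.333, and the calls therefore depend on edgeR's estimate of the spread over many genes.

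**Figure D3:**
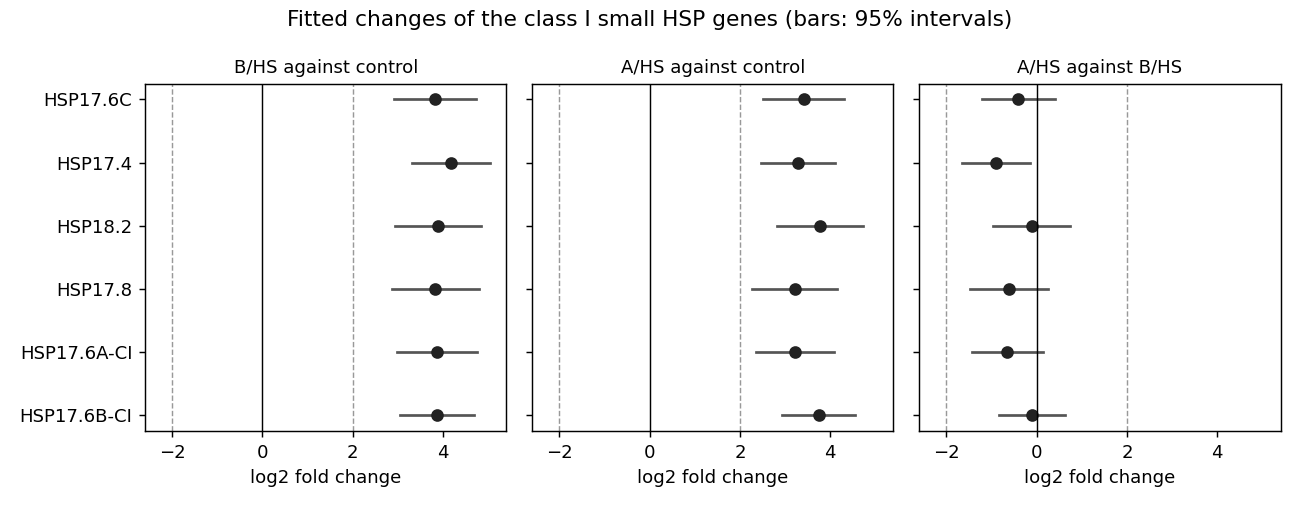
Fitted log2 fold changes of the 6 genes (x axis) in the 3 comparisons, with 95% intervals as bars; dashed lines mark 4-fold. After B/HS and A/HS every interval lies above the 4-fold line, and in A/HS against B/HS every point lies below 0 and the interval of HSP17.4 alone does not reach 0.

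Setting A/HS directly against B/HS asked whether the primed, hotter treatment left the family at another level. None of the 6 was DE, against 0.611 % of tested genes DE and lower. At an unadjusted p under 0.05, 1 of the 6 was lower (HSP17.4), against 15.7 % of tested genes, and DESeq2 also gave 0 DE members. The median log2 difference was −0.51, against 0.02 over all tested genes. Both A/HS libraries lay below both B/HS libraries for 4 of 6 genes, against 29.6 % of tested genes.

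HSP17.4 differed by −0.90 ± 0.35 (SE; 95% interval −1.65 to −0.14; edgeR adjusted p = 0.102). Its adjusted p ranged from 0.00512 to 0.481 over 13 alternative settings, the lowest with all genes of at least 1 count in the fit, and its difference stayed under 4-fold in each. HSP17.6A-CI differed by −0.65 (interval −1.43 to 0.14) and HSP17.8 by −0.62 (−1.48 to 0.25). For these 3 genes the intervals allow a fall to between 0.318 and 0.370 of the B/HS level. The difference was −0.41 for HSP17.6C (−1.22 to 0.40). HSP17.6B-CI and HSP18.2 both differed by −0.11, with intervals of −0.84 to 0.62 and −0.96 to 0.74, and their sign turned when A/HS 1 was left out. The order of these differences did not follow the sequence groups, since each group held a gene near 0 and a gene at −0.65 or lower. With 2 libraries per condition these data neither separate the treatments for any member at the adjusted p used nor show that their levels were alike.

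As a family the 6 genes summed to 908 and 1996 CPM in the control libraries, to 23191 and 19128 CPM after B/HS and to 13858 and 18947 CPM after A/HS. These sums are 0.301 and 0.712 % of the nuclear counts in control plants, 5.20 and 4.62 % after B/HS, and 3.79 and 5.09 % after A/HS. The ranges of B/HS and A/HS overlap on the nuclear scale, while on the CPM scale both A/HS libraries are lower. In CPM the mean sum was 14.6 times the control after B/HS and 11.3 times after A/HS, and as a share of nuclear counts 9.70 and 8.77 times. Without control 2 the CPM ratios were 22.6 and 17.65, and without control 1 they were 10.7 and 8.28.

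The share of each gene in this sum was compared per kb, as a description with no test. Per kb of exon, HSP17.8, HSP18.2 and HSP17.6C had the highest CPM in control and B/HS plants. Both control libraries held them in this order, by small steps of 1.07- and 1.04-fold in the means. After B/HS each step of this order held in 1 of the 2 libraries. The 3 genes were followed, after a step of 2.49-fold in control plants and 2.43-fold after B/HS, by HSP17.6B-CI, HSP17.6A-CI and HSP17.4. After A/HS HSP18.2 stood first, 1.33-fold above HSP17.6C and with both libraries of each apart, and HSP17.6B-CI stood 1.80-fold above HSP17.6A-CI, again with the libraries apart. HSP18.2 made up 25.2 ± 0.81 % of the sum per kb in control plants (SD, n = 2), 25.9 ± 2.86 % after B/HS and 31.2 ± 0.91 % after A/HS. HSP17.6B-CI went from 9.98 ± 0.60 % to 9.77 ± 0.34 % and then to 11.8 ± 0.41 %. The 2 A/HS libraries lay above the other 4 for both genes. They lay below the other 4 for HSP17.8, HSP17.6A-CI and HSP17.4, and overlapped them for HSP17.6C. The shares are parts of the same sum, so a larger share of some genes goes with smaller shares of others. These separations are therefore not independent, and the same measure was not taken over other genes. In CPM the means of HSP18.2 (5815 after B/HS, 5392 after A/HS) and HSP17.6B-CI (2386 and 2207) were not higher after A/HS. HSP17.8 had 27.0 ± 0.03 %, 26.1 ± 1.90 % and 22.1 ± 2.65 %, and HSP17.4 had 5.47 ± 0.10 %, 6.73 ± 0.42 % and 4.67 ± 0.65 %.

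**Figure D4:**
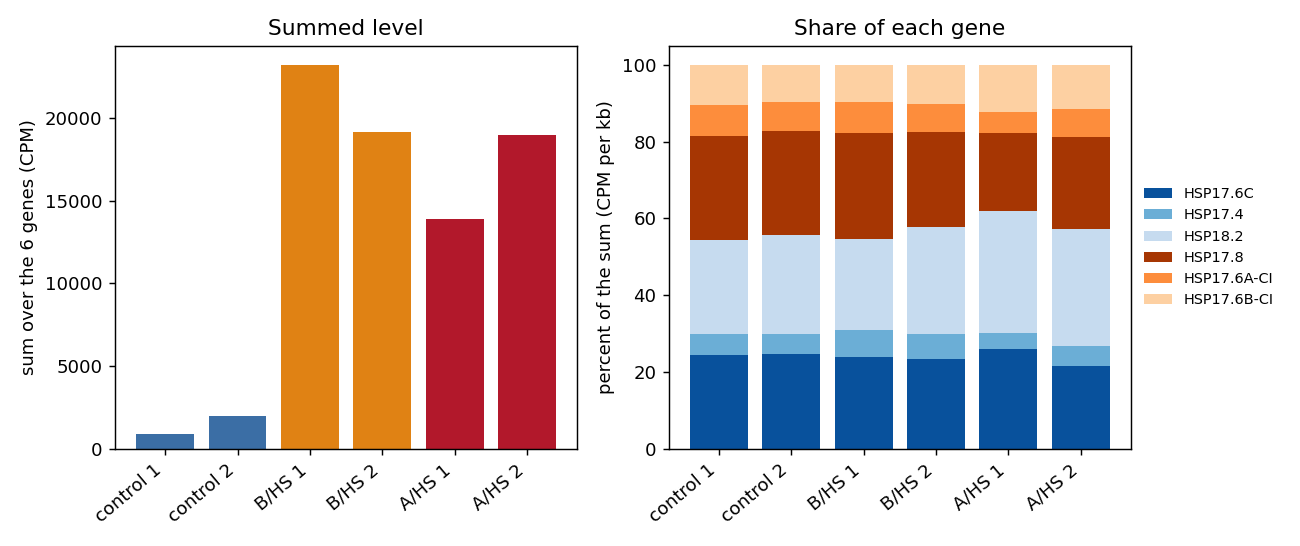
Left, CPM summed over the 6 genes in each library (908 to 23191 CPM); right, percent of the sum per kb that each gene makes up. Colours on the left are the conditions; on the right the band of HSP18.2 widens from about 25 % in control plants to 31.2 % after A/HS, and that of HSP17.8 narrows from 27.0 to 22.1 %.

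The other sHSP genes, which encode class II, class III, plastid, mitochondrial, endoplasmic reticulum and peroxisomal proteins and some of minor classes, moved in a similar way. Of 13, 10 were DE and higher after B/HS and 10 after A/HS, against 3.76 % and 2.92 % of tested genes. The median log2 fold changes were 3.77 and 3.26, against −0.02 and 0.02 over all tested genes. The ER form HSP22.0 (AT4G10250) had the largest change after B/HS, 3.95 ± 0.36 (edgeR adjusted p = 5.2e-06), and AT1G52560 the largest after A/HS, 4.05 ± 0.38 (edgeR adjusted p = 8.2e-06). The lowest signed values were those of AT5G54660 (−0.14 after B/HS) and AT4G21870 (−0.22 after A/HS), which were not DE. The tandem class II genes HSP17.6II (AT5G12020) and HSP17.6A (AT5G12030) rose by 3.73 and 3.88 after B/HS and by 2.82 and 3.76 after A/HS. In A/HS against B/HS they were at −0.90 ± 0.38 and −0.12 ± 0.37, neither of them DE, and the difference between the 2 genes was not tested.

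Among the 13 HSFs and associated regulators 10 were DE and higher after B/HS and 9 after A/HS (medians 2.94 and 3.08). Over all tested genes these shares were 3.76 % and 2.92 %. HSFA2, a heat-induced activator of sHSP genes, rose by 3.70 ± 0.42 after B/HS (edgeR adjusted p = 2.0e-05) and by 3.08 ± 0.41 after A/HS (edgeR adjusted p = 9.66e-05). The coactivator MBF1C had the largest change of the list after B/HS (3.79) and HSFA7B after A/HS (4.28). HSF1 (HSFA1A), a constitutive factor, was at −0.30 and −0.06 and was not DE in either, at a level of only 1.46 to 2.61 CPM. It does not stand for all HSFA1 genes. HSFA1E was DE and higher in both treatments (2.34 and 3.67, from a control mean of 1.44 CPM). HSFA1D was higher by the adjusted p but under 4-fold (1.52, edgeR adjusted p = 0.000107, and 0.92, edgeR adjusted p = 0.00491). HSF3 (HSFA1B) was at 0.32 and 0.31 and was not DE. Of the 15 refolding chaperones 14 were DE and higher after B/HS and 11 after A/HS (medians 3.59 and 2.74). HSP101, the disaggregase that works on proteins held by sHSPs, rose by 3.78 ± 0.39 after B/HS (edgeR adjusted p = 9.6e-06) and 3.19 ± 0.38 after A/HS (edgeR adjusted p = 3.89e-05). The largest changes of this list were those of the FKBP-type immunophilin AT5G48570 after B/HS (3.82) and the co-chaperone BAG6 after A/HS (3.63). The smallest were those of the constitutive HSC70-1 (1.80 and 0.80). HSC70-1 was higher by the adjusted p (edgeR adjusted p = 0.000171 and 0.0294) but under 4-fold, and so was not DE in either. None of the 41 genes of these 3 lists reached the 4-fold threshold in A/HS against B/HS. Over all tested genes only 1.17 % were DE and higher and 0.611 % DE and lower in this comparison. By the adjusted p alone 3 were higher (HSFA1E, DREB2A and HSFB2A, by 0.72 to 1.33) and 4 lower (HSFA3, AT5G51440, HSC70-1 and J2, by −1.64 to −0.80), against 6.25 % and 7.63 % of all tested genes. None of the 6 class I members passed it. None of the 9 reference genes was DE in any comparison, against at most 4.92 % of tested genes in either direction. By the adjusted p alone PP2AA3 was higher after A/HS (0.72, against 18.3 % of tested genes passing upward) and GAPC2 was higher in A/HS against B/HS (0.73).

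**Figure D5:**
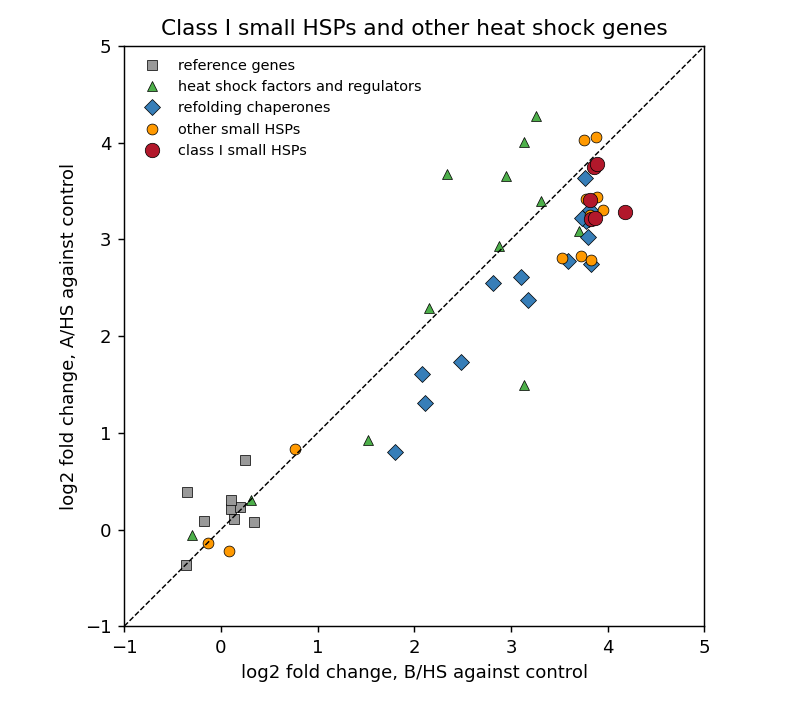
Log2 fold change after B/HS (x axis) and after A/HS (y axis), both against the same control libraries, for the class I sHSPs and for 4 other gene lists; the dashed line marks equal values. The class I genes sit in a tight group at 3.82 to 4.18 and 3.21 to 3.78 below the line, the reference genes near 0.

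The members' log2 CPM ran nearly in parallel over the 6 libraries. Pearson's r between pairs of members was 0.981 to 0.9997, highest for HSP17.8 with HSP17.6A-CI, whose proteins are also the most alike. The 10 genes outside the family with the highest r to the members' mean, among 6204 candidates with at least 10 CPM on average, were MBF1C, Hop3, AT5G13200, MBF1A, HSP23.6-MITO, Hsp70b, AT3G10020, AT1G67360, HSP21 and AT1G30070, with r of 0.9988 to 0.9999. These values describe 6 libraries that share 3 conditions and 1 step in control level, so they say little beyond that step. MBF1A had a smaller change (1.48 and 1.27) than the others of this list (2.83 to 3.89 over both treatments).

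Some counts near the members call for care. HSP17.4 overlaps AT3G46220 and the long non-coding RNA AT3G07365, both on the opposite strand, and the way strand was treated in counting is not given in the sources used here, so reads of the overlaps cannot be told apart. AT3G07365 was listed at 0 counts in every library. AT3G46220 had 53 and 102 counts in control plants, 159 and 465 after B/HS and 1807 and 1056 after A/HS, and in A/HS against B/HS it was higher by 2.01 ± 0.34 (edgeR adjusted p = 0.00316), where HSP17.4 was at −0.90. RABA2b (AT1G07410), which starts 247 bp after the end of HSP17.8 on the same strand, had 8 and 30, then 195 and 190, then 265 and 175 counts, and AT1G59865, 63 bp from HSP17.6A-CI on the opposite strand, had 4 and 22, then 91 and 137, then 283 and 121. Both were DE and higher in both treatments (log2 fold changes 3.59 and 3.55 for RABA2b, 3.36 and 3.96 for AT1G59865), at counts far below those of the members. The part of the members' transcripts in these counts was not tested. Words were matched on both strands. Of the 25-base words of the HSP17.4 transcript 66.4 % also occur in another annotated transcript, and of its 50-base words 61.5 %. Nearly all of them lie in its overlapping genes, as the same DNA read on the other strand and not as a copy elsewhere. Of the 25-base words, 429 occur in AT3G07365 and 36 in AT3G46220. The values of HSP17.4 carry this limit. Among the members themselves, 7.07 % of the 25-base words of HSP17.8 and 6.80 % of those of HSP17.6A-CI also occur in other transcripts, mostly in each other, and no member shares a word of 50 bases with another.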

How the data were processed

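RNA-seq was made from *A. thaliana* plants, with 2 libraries in each of 3 conditions. Per the labels and methods the authors used fastx toolkit for trimming and TopHat 1.4.1 for alignment to TAIR10, and deposited raw counts per gene. The counting program and its treatment of strand and of reads with several matches are not given in the sources used here. Labels name a Nextera XT kit and the methods TruSeq. The deposited *B. depauperata* counts use other gene identifiers and were left out.

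The counts were fitted with edgeR 4.0.16 (R 4.3.3; TMM, filterByExpr, glmQLFit and glmQLFTest) on all 6 libraries in 1 fit of 17669 genes, with Benjamini-Hochberg adjustment over all of them. DE means an adjusted p under 0.05 and at least 4-fold, the study's thresholds. An SE is the absolute log2 fold change over the square root of F, and 95% intervals use the test's degrees of freedom. The fit was also run on simulated counts with the same spread for every gene, which does not bear on the gap between the control libraries. CPM use TMM-scaled totals that include organelle genes. A count of 0 allows up to 0.280 CPM, from 3 counts in control 1. Alternatives were DESeq2 1.42.0, RLE factors, other filters, the 4 libraries compared alone, nuclear genes alone, thinned libraries and each library left out.

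Text names all members and, for each list, the genes with the largest and smallest change after B/HS and A/HS. It also names HSFA2, the HSFA1 genes, HSP101, the class II genes, the 10 genes most like the members, and neighbours. Members and lists were chosen with earlier results of these data known. Sequences are from RefSeq TAIR10.1. Counts were matched to it by locus.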

Additional observations from a re-analysis of the deposited data

How the results depend on the processing

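The number of DE members was 6 after B/HS, 6 after A/HS and 0 in A/HS against B/HS under every alternative run, including DESeq2, nuclear genes alone and each library left out. With libraries left out in turn, the members' median log2 fold change ran from 3.44 to 4.46 after B/HS, from 2.90 to 3.98 after A/HS and from −0.76 to −0.30 in A/HS against B/HS, the control libraries setting both ends of the first 2. In A/HS against B/HS, HSP17.6B-CI (AT2G29500) ran from −0.32 to 0.059 and HSP18.2 (AT5G59720) from −0.32 to 0.068 with libraries left out. HSP17.6B-CI turned to 0.01 without B/HS 1 and to 0.059 without A/HS 1, and HSP18.2 to 0.068 without A/HS 1. HSP17.4 passed an adjusted p of 0.05, still under 4-fold, with all genes of at least 1 count (0.00512) and without control 1 (0.0423) or control 2 (0.0473). Over all genes, 1535, 1165 and 314 were DE in the 3 comparisons. At least 10 counts in every library gave 687, 543 and 77, the adjusted p alone gave 7002, 6333 and 2453, DESeq2 gave 181 in the last, and leaving out libraries gave 1261 to 1733, 976 to 1494 and 120 to 441. Why was not tested, apart from the fewer genes or the looser rule. CPM over nuclear genes alone were higher, for example a family sum of 58945 in place of 21159 CPM after B/HS, with the same calls. No paired analysis was possible because the labels give no replicate numbers shared by conditions.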
